A study of Mus musculus with 35 samples.

Results

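Transcript levels were examined for 10 genes of the fibroblast growth factor (FGF) pathway, chosen by symbol from the 54446 genes of a bulk RNA sequencing table of the mouse embryo and of pluripotent cells in culture. The genes were 3 secreted ligands (Fgf4, Fgf8 and Fgf15), 2 receptors (Fgfr1 and Fgfr2) and 5 genes known to respond to the extracellular signal-regulated kinase (ERK), namely Spry2, Spry4, Dusp6, Etv4 and Etv5. The study asked which stage of the embryonic epiblast cultured epiblast stem cells resemble. It compared the inner cell mass at E3.5 and epiblast from E4.5 to E7.5 (E, days of embryonic development) with 4 cultures, wild type apart from reporter alleles, at 3 libraries per group.

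The 15 embryo libraries were labelled as strain CD-1, with embryos of both sexes and no treatment. According to the study's methods, inner cell masses (ICM) of E3.5 blastocysts were cut out with a laser. E4.5 epiblast cells were picked by hand after immunosurgery as cells without GFP, with H2B-GFP at Pdgfra telling primitive endoderm from epiblast. E5.5, E6.5 and E7.5 epiblasts were freed by hand from visceral endoderm and extraembryonic ectoderm, and at E7.5 also from the allantois. Each embryo library was a pool of several embryos. The 12 culture libraries came from epiblast-like cells (EpiLCs), which are embryonic stem cells (ESCs) held for 48 h in FGF2 and Activin-A, from 2D epiblast stem cells (2D EpiSCs), obtained by converting ESCs with FGF2 and Activin-A, and from 3D EpiSCs of ESC or of embryo origin, grown in Matrigel with FGF2, Activin-A, the Wnt pathway inhibitor XAV939 and the Bmp antagonist Noggin. All 4 cultures therefore held added FGF2. The embryo and culture libraries were made with different kits, so their levels are set side by side and were not tested against each other.

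FGF ligands bind receptor tyrosine kinases at the cell surface, and the adaptor Frs2 and the Ras, Raf and Mek proteins pass the signal to ERK. ERK in turn raises the transcription of its own brakes, among them the Sprouty proteins, which act between receptor and Raf, and Dusp6, a phosphatase of ERK, as well as of the Pea3-type ETS transcription factors Etv4 and Etv5. In the blastocyst, Fgf4 from epiblast precursors acts through Fgfr1 and Fgfr2 and directs neighbouring cells to primitive endoderm, and Fgf4 also sustains the trophoblast. Fgf8 is needed for mesoderm cells to leave the primitive streak, with Fgfr1 as a main receptor, and FGF and ERK signalling moves pluripotent cells out of the naive state.

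Promoter sequence is shown for Spry2, Dusp6 and Etv5, since these genes are commonly read as the output of ERK and since ETS and AP-1 factors are among the nuclear targets of ERK. RefSeq windows of 300 bases, from 250 before to 50 after a start site, were found for 5 of the 10 genes (Fgf4, Fgfr2, Spry2, Dusp6 and Etv5), 6 windows in all. Capitals mark the match to a searched motif, and letters run 5′ to 3′ on the strand of the gene.
Spry2 (GRCm38.p6, chr14:105896770-105897069, minus strand): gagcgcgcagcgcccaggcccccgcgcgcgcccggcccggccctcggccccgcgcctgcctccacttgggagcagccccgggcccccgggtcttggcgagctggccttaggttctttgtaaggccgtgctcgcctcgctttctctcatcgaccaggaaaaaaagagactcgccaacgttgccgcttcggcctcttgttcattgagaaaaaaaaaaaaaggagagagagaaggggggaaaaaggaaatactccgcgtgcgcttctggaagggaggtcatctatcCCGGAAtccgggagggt
Dusp6 (GRCm38.p6, chr10:99262981-99263280, plus strand): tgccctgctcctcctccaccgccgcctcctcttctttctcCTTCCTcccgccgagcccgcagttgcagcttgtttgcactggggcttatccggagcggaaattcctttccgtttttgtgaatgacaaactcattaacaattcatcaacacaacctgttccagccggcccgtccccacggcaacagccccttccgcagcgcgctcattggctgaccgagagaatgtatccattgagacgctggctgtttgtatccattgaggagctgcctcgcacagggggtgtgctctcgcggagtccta
Etv5 (GRCm38.p6, chr16:22438319-22438618, minus strand): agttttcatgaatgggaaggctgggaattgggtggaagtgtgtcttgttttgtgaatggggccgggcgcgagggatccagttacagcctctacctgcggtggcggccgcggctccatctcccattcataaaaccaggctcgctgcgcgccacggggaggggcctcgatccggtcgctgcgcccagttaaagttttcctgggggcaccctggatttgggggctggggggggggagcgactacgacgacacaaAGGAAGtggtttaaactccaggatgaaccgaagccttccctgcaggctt
The motifs were the ETS cores CCGGAA and AGGAAG, AP-1 as TGANTCA and the cyclic AMP element TGACGTCA, each on both strands and none overlapping another in these windows. CCGGAA stood in 14.9% of all 32851 windows of this length in the table, and in the Spry2 window once, 34 bases after the start. AGGAAG stood in 35.4% of all windows, once in the Dusp6 window (as its reverse complement, 210 bases before the start), once in the Etv5 window shown and at 2 places in the Fgfr2 window. TGANTCA was held by 7.81% and TGACGTCA by 1.79% of all windows, and neither stood in a window of the 5 genes. The Fgf4 window and a further Etv5 window held none of the 4 motifs. A match is a description of the letters and not of binding.

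On mm10, the ligand genes lie at chr7:144847367-144865243 (Fgf4, plus strand), chr7:144896531-144900953 (Fgf15, plus) and chr19:45736798-45742915 (Fgf8, minus), so that Fgf4 and Fgf15 are close neighbours. Fgfr1 lies at chr8:25513654-25575718 (plus) and Fgfr2 on chromosome 7. The feedback genes lie at chr14:105891947-105896819 (Spry2, minus), chr18:38586268-38601268 (Spry4, minus), chr10:99263231-99267489 (Dusp6, plus), chr11:101769742-101785371 (Etv4, minus) and chr16:22381309-22439719 (Etv5, minus). Each value is for the whole gene, over all its annotated transcripts.

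Levels are given as TPM, a measure of transcript abundance scaled to transcript length and to a fixed total per library, and can be compared between genes of a library. Differences are on the log2(TPM + 1) scale, which understates changes of genes near 0, and are given with the standard error (SE). They come from limma, fitted over all genes tested in the embryo (11880) or in culture (11541), with p-values adjusted over all of those genes. A gene was called where the adjusted p was below 0.05 and the difference above 1 in size, and "rose" and "fell" are used only of called genes. All 10 genes were among those tested in all 10 comparisons, 4 between successive stages and 6 between cultures.

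Every library held Pou5f1, the defining pluripotency factor, at group means from 251 to 1874 TPM. Markers of other cell types were also present in the embryo. The 10 trophectoderm and extraembryonic ectoderm markers summed to 3238 to 3298 TPM in E3.5 and 2869 to 3070 TPM in E4.5 libraries, with Cdx2 at 161 and 23.7 TPM and Elf5 at 49.7 and 127 TPM on average, although immunosurgery takes off the trophectoderm. They summed to 343 to 377 TPM at E5.5, 422 to 473 TPM at E6.5 and 911 to 957 TPM at E7.5. Krt18, a keratin gene, was the highest of the 10 at every stage. Its means were 1682, 1666, 219, 229 and 402 TPM from E3.5 to E7.5. The 12 primitive and visceral endoderm markers summed to 769 to 796 TPM at E3.5, 328 to 365 TPM at E4.5, 898 to 957 TPM at E5.5, 1404 to 1410 TPM at E6.5 and 1457 to 1479 TPM at E7.5, with Ttr and Afp at 0 in E3.5 libraries. In culture the endoderm list stayed between 2.06 and 70.8 TPM. Among the cultures, replicate 3 of the ESC-derived 3D EpiSCs stood apart, with a median absolute log2 difference over genes of 0.271 and 0.269 from its 2 fellows, which differed from each other by 0.061. Pairs as close as these, at 0.0569 to 0.0649, were also found among the embryo-derived 3D EpiSCs (replicates 2 and 3) and the 2D EpiSCs (replicates 1 and 2), and no label says whether they are separate cultures.

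**Figure D1:**
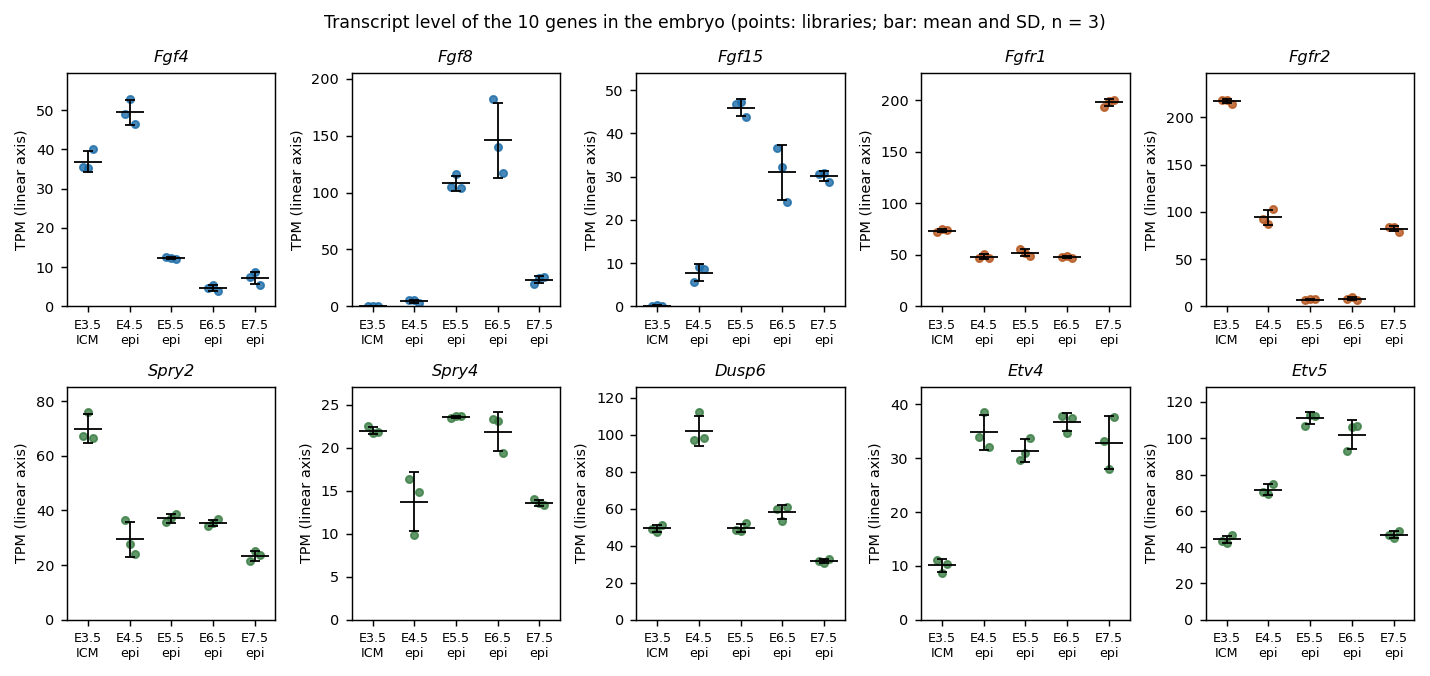
Level of each of the 10 genes in the embryo, in TPM on linear axes that start at 0, by stage. Points are libraries, and bars give the mean and SD of 3. Fgf4 and Fgfr2 stand highest at E3.5 or E4.5, Fgf8 and Fgf15 at E5.5 or E6.5, and Fgfr1 at E7.5.

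The ligand genes changed places across implantation. Fgf4 was the leading FGF ligand transcript before implantation, and Fgf8 and Fgf15 rose at E4.5 and again at E5.5 while Fgf4 fell. Fgf4 stood at 35.6, 35.2 and 40.0 TPM in the E3.5 libraries, 48.9, 52.8 and 46.4 TPM at E4.5, 12.5, 12.4 and 12.1 TPM at E5.5, 4.68, 5.51 and 3.95 TPM at E6.5, and 7.53, 8.72 and 5.47 TPM at E7.5. No library from E5.5 onwards reached the lowest earlier one. Fgf4 fell by 1.92 on the log2 scale from E4.5 to E5.5 (SE 0.14, limma adjusted p = 4.02e-08) and by 1.23 from E5.5 to E6.5 (SE 0.14, limma adjusted p = 0.000108). Its differences of 0.41 from E3.5 to E4.5 and of 0.52 from E6.5 to E7.5 had limma adjusted p-values of 0.0216 and 0.0063 and stayed under the size set for a call. The libraries of E6.5 and E7.5 overlapped.

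Fgf8, the ligand tied to the primitive streak, was near 0 in the ICM, at 0.198, 0.124 and 0.221 TPM. It stood at 5.21, 5.23 and 2.58 TPM at E4.5, 105, 116 and 104 TPM at E5.5, 182, 140 and 117 TPM at E6.5, and 19.7, 24.9 and 26.0 TPM at E7.5. The stages did not overlap in any library, with E6.5 highest and E3.5 lowest. Fgf8 rose by 2.13 on the log2 scale at E4.5 (SE 0.20, limma adjusted p = 1.05e-06) and by 4.40 at E5.5 (SE 0.20, limma adjusted p = 4.56e-10). It did not pass the test between E5.5 and E6.5, where the difference was 0.41 (limma adjusted p = 0.221), and it fell by 2.57 from E6.5 to E7.5 (SE 0.20, limma adjusted p = 3.08e-07). The 10 primitive streak and mesoderm markers moved at the same steps without following Fgf8 throughout: 6 were called higher and 1 lower at E5.5, 8 higher at E6.5, and 3 higher and 5 lower at E7.5. Of all genes, 14.9% were called higher and 9.47% lower at E5.5, 0.715% and 0.48% at E6.5, and 10.6% and 1.94% at E7.5.

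Fgf15, the mouse counterpart of human FGF19, was listed at 0.0373, 0.309 and 0 TPM in the ICM. It stood at 5.61, 9.19 and 8.70 TPM at E4.5, 46.9, 47.3 and 43.8 TPM at E5.5, 36.7, 32.2 and 24.1 TPM at E6.5, and 30.6, 30.8 and 28.8 TPM at E7.5. Every post-implantation library was above every earlier one, and E6.5 and E7.5 overlapped. Fgf15 rose by 2.97 on the log2 scale at E4.5 (SE 0.17, limma adjusted p = 7.5e-09) and by 2.44 at E5.5 (SE 0.17, limma adjusted p = 3.76e-08). It differed by -0.57 between E6.5 and E5.5 (limma adjusted p = 0.0505) and by -0.02 between E7.5 and E6.5 (limma adjusted p = 0.922), the latter with a sign that turned when single libraries were left out.

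The receptors followed other courses. Fgfr1 was at 72.0, 75.1 and 73.7 TPM in the ICM, 47.0, 50.7 and 46.5 TPM at E4.5, 55.4, 52.0 and 48.6 TPM at E5.5, 47.6, 49.0 and 46.7 TPM at E6.5, and 194, 199 and 200 TPM at E7.5. The libraries of E4.5, E5.5 and E6.5 overlapped, and those of E7.5 stood far above them. Its difference of -0.61 at E4.5 (limma adjusted p = 1.04e-05) was under the size set for a call, and neither later step before E7.5 passed the test, the E5.5 step changing sign under another scaling of the libraries. Fgfr1 rose by 2.03 on the log2 scale at E7.5 (SE 0.07, limma adjusted p = 1.17e-10).

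Fgfr2 made the largest downward change of the 10 genes in the embryo. It stood at 218, 218 and 214 TPM in the ICM, 92.4, 86.8 and 103 TPM at E4.5, 6.38, 7.67 and 7.37 TPM at E5.5, 7.47, 9.81 and 7.01 TPM at E6.5, and 83.8, 83.9 and 78.8 TPM at E7.5. The level was thus high at both ends of the series and low in all 6 libraries of E5.5 and E6.5, which overlapped (log2 difference 0.15, limma adjusted p = 0.429). Fgfr2 fell by 1.20 on the log2 scale at E4.5 (SE 0.11, limma adjusted p = 8.56e-07). It fell by 3.55 at E5.5 (SE 0.11, limma adjusted p = 1.04e-11) and rose by 3.20 at E7.5 (SE 0.11, limma adjusted p = 8.73e-11). In the order of levels, E4.5 and E7.5 were neighbours that the test did not separate (limma adjusted p = 0.137).

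Fgfr2 is also a receptor of trophectoderm and primitive endoderm, so the markers of those cells belong beside it. From E4.5 to E5.5 all 9 trophectoderm and extraembryonic ectoderm markers tested were called lower, with a median log2 difference of -3.21 against 0.16 over all genes, while 6 of 12 primitive and visceral endoderm markers were called higher at that step. From E3.5 to E4.5, 6 of 12 primitive and visceral endoderm markers were called lower, among them Gata4, Gata6 and Pdgfra, and of the 9 trophectoderm and extraembryonic ectoderm markers 3 were called higher and 2 lower. Pdgfra carried the reporter by which E4.5 cells were picked. From E6.5 to E7.5, 5 of 9 trophectoderm and extraembryonic ectoderm markers were called higher (Gata3, Bmp4, Cdx2, Hand1 and Krt8) and 1 lower (Elf5). Of the endoderm markers only Pdgfra was called, as higher. Shares of all genes called higher and lower were 5.88% and 11.9% at E4.5, 14.9% and 9.47% at E5.5 and 10.6% and 1.94% at E7.5. Elf5, a defining gene of extraembryonic ectoderm, was at 0 to 0.579 TPM at E7.5. Their part in the Fgfr2 levels was not tested. In bulk samples, fewer cells of a type and less RNA per cell cannot be told apart. RNA was also fragmented under other conditions at E3.5 and E4.5 than at later stages, so that difference and the change from E4.5 to E5.5 cannot be told apart for any gene.

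The Fgfr2 record needs a further reservation. Its span in the table is 2960900 bases on chromosome 7 (mm10, 130162451 to 133123350, minus strand), set by 1 of 27 transcript models, while the next longest covers 103813 bases. The long model shares exon bases with Ctbp2 on the same strand, and reads there could be assigned to either gene. Ctbp2 was measured at means of 140 ± 4.48 TPM at E3.5, 199 ± 8.83 at E4.5, 201 ± 5.36 at E5.5, 156 ± 18.6 at E6.5 and 138 ± 9.89 at E7.5 (SD, n = 3). How reads were shared between the 2 genes was not tested, since values are given for whole genes only.

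The feedback genes did not move as a block in the embryo. Spry2 was highest in the ICM, at 67.3, 75.9 and 66.4 TPM, and lower at E4.5, at 36.6, 27.7 and 23.9 TPM. It stood at 35.6, 37.2 and 38.6 TPM at E5.5, 34.2, 35.3 and 36.7 TPM at E6.5, and 21.4, 25.1 and 23.6 TPM at E7.5. Spry2 fell by 1.24 on the log2 scale at E4.5 (SE 0.13, limma adjusted p = 2.12e-06), and in the 3 later steps it stayed under the size set for a call. Spry4, its paralogue, moved between narrow limits, from 9.87 TPM in an E4.5 library to 23.7 TPM in 2 E5.5 libraries. Spry4 was not called at any step, with log2 differences of -0.67 at E4.5 (limma adjusted p = 0.00106), 0.77 at E5.5 (limma adjusted p = 0.000283) and -0.64 at E7.5 (limma adjusted p = 0.00174).

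Dusp6 peaked at E4.5. It stood at 49.1, 47.4 and 51.2 TPM in the ICM, 97.3, 112 and 98.0 TPM at E4.5, 48.6, 47.8 and 52.1 TPM at E5.5, 59.7, 53.6 and 60.7 TPM at E6.5, and 31.5, 30.4 and 32.8 TPM at E7.5. All E4.5 libraries lay above all others, and the E3.5 and E5.5 libraries overlapped (log2 difference 0.01, limma adjusted p = 0.946). Dusp6 rose by 1.04 on the log2 scale at E4.5 (SE 0.08, limma adjusted p = 1.88e-07) and fell by 1.03 at E5.5 (SE 0.08, limma adjusted p = 1.39e-07). Without E4.5 replicate 2 these differences were 0.97 and -0.97, which missed the size set for a call, so that both calls were lost with the direction kept. At E7.5 its difference was -0.86 (limma adjusted p = 2.48e-06), and -1.15 after rescaling of the libraries.

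Etv4 and Etv5 both encode Pea3-type ETS factors and had different courses. Etv4 was at 11.1, 8.69 and 10.4 TPM in the ICM and between 27.9 and 38.5 TPM in all 12 later libraries. It rose by 1.70 on the log2 scale at E4.5 (SE 0.12, limma adjusted p = 4.46e-08) and passed the test at no later step. Etv5 stood at 43.6, 42.4 and 46.6 TPM in the ICM, 70.4, 69.4 and 74.9 TPM at E4.5, 107, 113 and 112 TPM at E5.5, 93.0, 106 and 107 TPM at E6.5, and 46.4, 45.2 and 49.0 TPM at E7.5. Its E7.5 libraries overlapped those of the ICM (log2 difference 0.08, limma adjusted p = 0.359). Etv5 differed by 0.68 at E4.5 (limma adjusted p = 7.76e-06) and 0.63 at E5.5 (limma adjusted p = 1.24e-05), steps that stayed under 1 each and together made a called rise of 1.31 from E3.5 to E5.5 (SE 0.08, limma adjusted p = 4.23e-09), and it fell by 1.11 at E7.5 (SE 0.08, limma adjusted p = 1.2e-07).

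By step, the 10 genes were called as follows. At E4.5, 4 rose (Fgf8, Fgf15, Dusp6 and Etv4) and 2 fell (Fgfr2 and Spry2), where 5.88% of all tested genes were called higher and 11.9% lower. At E5.5, 2 rose (Fgf8 and Fgf15) and 3 fell (Fgf4, Fgfr2 and Dusp6), against 14.9% and 9.47% of all genes. At E6.5 only Fgf4 was called, as lower, in a step where 0.715% of all genes were called higher and 0.48% lower. At E7.5, 2 rose (Fgfr1 and Fgfr2) and 2 fell (Fgf8 and Etv5), against 10.6% and 1.94% of all genes. The median difference of the 10 genes was 0.55 at E4.5, 0.23 at E5.5, -0.09 at E6.5 and -0.37 at E7.5, beside -0.10, 0.16, -0.06 and 0.31 over all genes. At E7.5 the 4 feedback genes other than Etv4 all lay below E6.5 in every library, and Etv5 alone of them was called. At the same step 8 of 10 epiblast and pluripotency markers were called lower, Pou5f1 from 721 to 251 TPM on average, and their part was not tested.

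The E7.5 step depends on scaling. All genes stood higher by a median of 0.31, and by 0.04 after rescaling of the libraries with median-of-ratios factors. The share of calls that were lower was 15.4% as deposited and 32.2% after rescaling. The 4 calls of the FGF genes at E7.5 held under both scalings, and Dusp6 joined them as lower after rescaling.

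**Figure D2:**
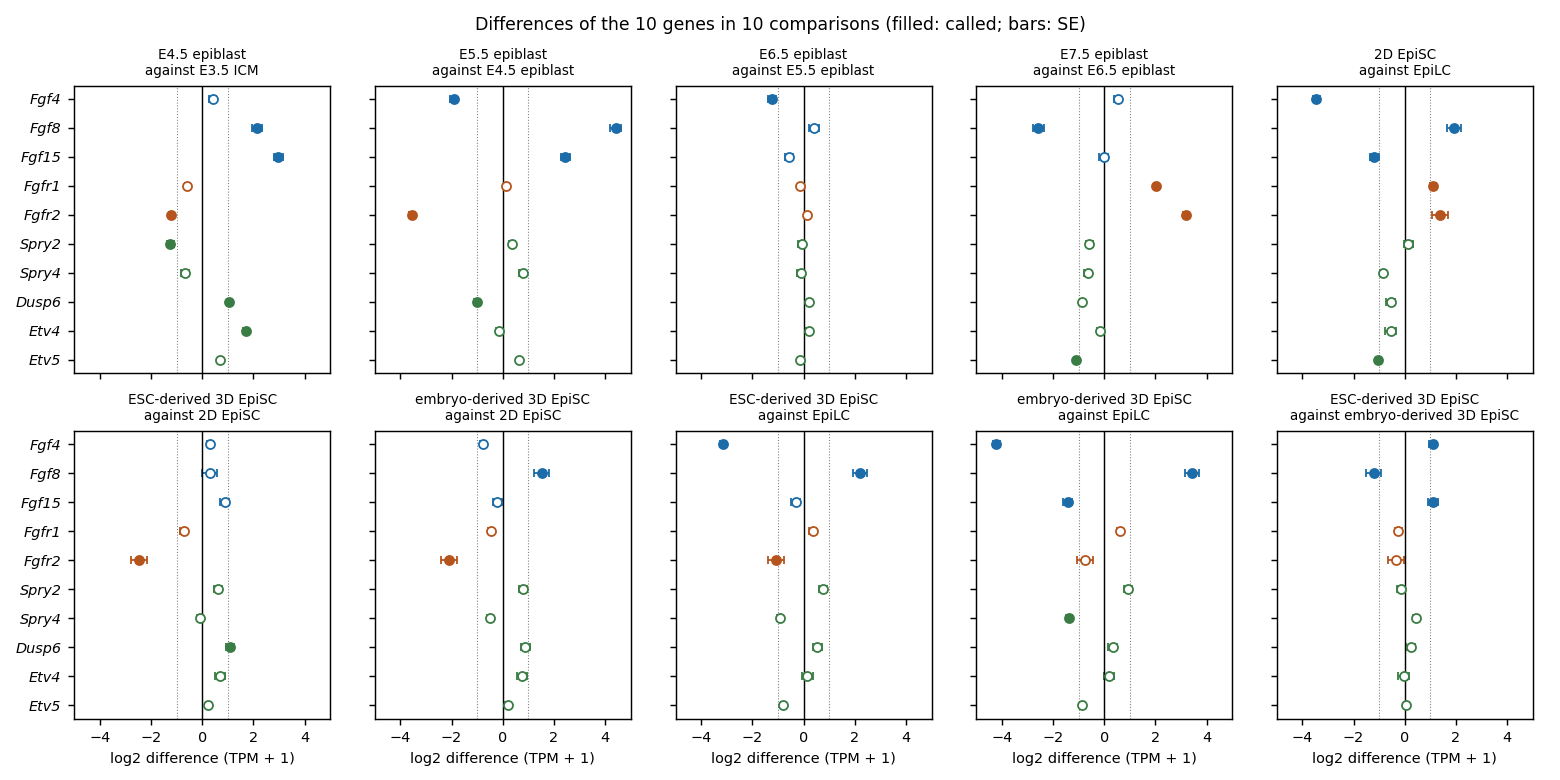
Differences of the 10 genes on the log2(TPM + 1) scale (horizontal axis) in the 10 comparisons, with SE bars. Filled points were called and open points were not, and dotted lines mark the size set for a call. Blue marks ligands, brown receptors and green feedback genes. Fgf4 lies far below 0 in all 3 comparisons with EpiLCs, and Fgf8 far above.

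In culture, EpiLCs stood apart by Fgf4. Fgf4 was at 89.6, 102 and 101 TPM in EpiLCs, 6.85, 7.44 and 9.87 TPM in 2D EpiSCs, 10.3, 9.55 and 10.6 TPM in ESC-derived and 4.45, 3.76 and 4.63 TPM in embryo-derived 3D EpiSCs. The EpiLC libraries lay far above all others, and those of 2D EpiSCs and ESC-derived 3D EpiSCs overlapped (log2 difference 0.31, limma adjusted p = 0.0599). Fgf4 was lower than in EpiLCs by 3.46 in 2D EpiSCs (SE 0.13, limma adjusted p = 1.99e-09), 3.14 in ESC-derived 3D EpiSCs (SE 0.13, limma adjusted p = 4.67e-09) and 4.22 in embryo-derived 3D EpiSCs (SE 0.13, limma adjusted p = 3.18e-10) on the log2 scale. For comparison, the highest embryo library, at E4.5, had 52.8 TPM.

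Fgf8 ran the other way. It stood at 16.1, 12.8 and 21.3 TPM in EpiLCs, 59.4, 60.3 and 75.9 TPM in 2D EpiSCs, 100, 104 and 47.5 TPM in ESC-derived and 226, 170 and 167 TPM in embryo-derived 3D EpiSCs. EpiLCs were lowest and embryo-derived 3D EpiSCs highest in every library, with the ESC-derived 3D EpiSCs overlapping the 2D EpiSCs through replicate 3. Against EpiLCs, Fgf8 was higher by 1.92 in 2D EpiSCs (SE 0.28, limma adjusted p = 0.000113), 2.20 in ESC-derived (SE 0.28, limma adjusted p = 6.54e-05) and 3.42 in embryo-derived 3D EpiSCs (SE 0.28, limma adjusted p = 1.12e-06). Embryo-derived 3D EpiSCs also exceeded 2D EpiSCs by 1.51 (SE 0.28, limma adjusted p = 0.00169), while ESC-derived 3D EpiSCs differed from 2D EpiSCs by 0.29 (limma adjusted p = 0.415). The level in embryo-derived 3D EpiSCs lay within or above the 117 to 182 TPM of E6.5 epiblasts, and that in EpiLCs between those of E4.5 and E5.5 and overlapping the 19.7 to 26.0 TPM of E7.5, with the kits differing. Streak and mesoderm markers were also higher than in EpiLCs, with 6 of 6 tested called in 2D EpiSCs and 5 of 6 in each of the 3D EpiSCs, and their part in the Fgf8 levels was not tested. Of all genes, 15.2% were called higher than in EpiLCs in 2D EpiSCs, 5.33% in ESC-derived and 10.5% in embryo-derived 3D EpiSCs.

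Fgf15 was at 80.2, 61 and 73.8 TPM in EpiLCs, 28.6, 27.2 and 36.6 TPM in 2D EpiSCs, 59.8, 56.9 and 54.7 TPM in ESC-derived and 19.2, 30.4 and 30.3 TPM in embryo-derived 3D EpiSCs. EpiLCs and ESC-derived 3D EpiSCs were thus the upper pair and 2D and embryo-derived 3D EpiSCs the lower, and within neither pair did the test find a difference (limma adjusted p = 0.168 and 0.369). Fgf15 was lower than in EpiLCs by 1.19 in 2D EpiSCs (SE 0.18, limma adjusted p = 0.000139) and by 1.42 in embryo-derived 3D EpiSCs (SE 0.18, limma adjusted p = 4.19e-05). ESC-derived 3D EpiSCs exceeded 2D EpiSCs by 0.88 (limma adjusted p = 0.00254), under the size set for a call, and by 1.05 after rescaling of the libraries.

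Of the receptors, Fgfr1 was at 65.1, 50.7 and 48.7 TPM in EpiLCs, 111, 114 and 125 TPM in 2D EpiSCs, 66.8, 73.0 and 69.6 TPM in ESC-derived and 88.7, 75.4 and 86.6 TPM in embryo-derived 3D EpiSCs. The 2D EpiSCs lay above and the EpiLCs below all other libraries. Fgfr1 was higher in 2D EpiSCs than in EpiLCs by 1.09 (SE 0.12, limma adjusted p = 1.38e-05), which became 0.91 after rescaling, when the call was lost. The 3D cultures were lower than 2D EpiSCs by 0.73 and 0.48 on the log2 scale (limma adjusted p = 0.000713 for ESC-derived and 0.00996 for embryo-derived), neither of them called.

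Fgfr2 was at 12.1, 5.71 and 15 TPM in EpiLCs, 28.8, 30.4 and 25.1 TPM in 2D EpiSCs, 5.34, 6.00 and 2.30 TPM in ESC-derived and 5.61, 5.91 and 5.59 TPM in embryo-derived 3D EpiSCs. All 2D EpiSC libraries lay above all others, and the 2 kinds of 3D EpiSCs overlapped. Fgfr2 was lower than in 2D EpiSCs by 2.46 in ESC-derived (SE 0.31, limma adjusted p = 0.000147) and 2.11 in embryo-derived 3D EpiSCs (SE 0.31, limma adjusted p = 0.000395) on the log2 scale, and higher in 2D EpiSCs than in EpiLCs by 1.38 (SE 0.31, limma adjusted p = 0.00273). The call between ESC-derived 3D EpiSCs and EpiLCs (-1.09, SE 0.31, limma adjusted p = 0.0146), groups that overlapped, was lost where only these groups were fitted (adjusted p = 0.0622 by limma), without ESC-derived 3D EpiSC replicate 3 (-0.75), without EpiLC replicate 1 (-0.97) or without EpiLC replicate 3 (-0.83). Trophectoderm and endoderm markers stood highest in the same 2D EpiSC libraries, at 578 to 738 TPM and 53.8 to 70.8 TPM summed, against 190 to 367 TPM and 2.06 to 29.2 TPM in the 3D EpiSCs, with Cdx2 and Elf5 under 1 TPM in all cultures. In EpiLCs the 2 lists summed to 48.2 to 72.4 TPM and 7.58 to 11.7 TPM. EpiLCs were thus lowest in the trophectoderm list, while their mean Fgfr2 of 10.9 TPM was above the 4.55 and 5.7 TPM of ESC-derived and embryo-derived 3D EpiSCs. Krt18 was the highest gene of the trophectoderm list here too. Its means were 36.7 TPM in EpiLCs, 336 TPM in 2D EpiSCs, 174 TPM in ESC-derived and 119 TPM in embryo-derived 3D EpiSCs. The part of these markers in the Fgfr2 levels was not tested. Ctbp2 lay between 243 and 323 TPM in the 12 culture libraries.

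**Figure D3:**
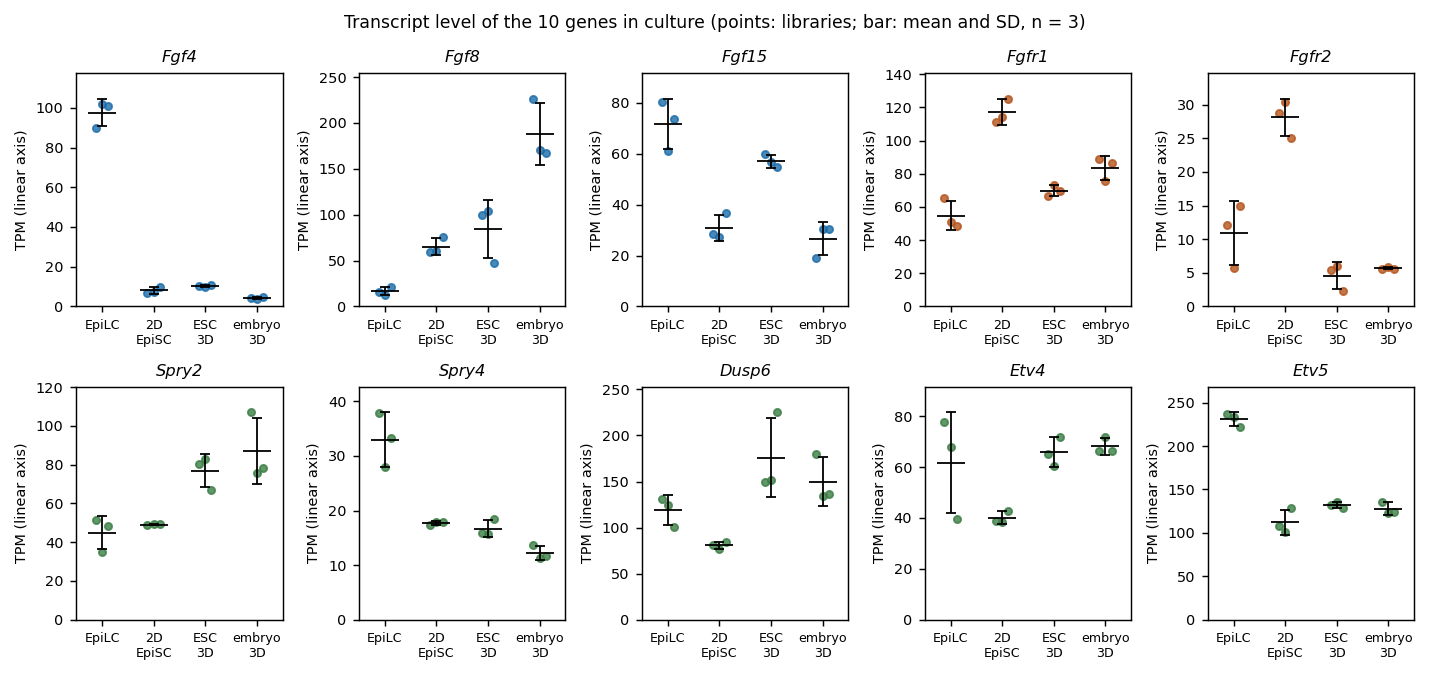
Level of each of the 10 genes in culture, in TPM on linear axes that start at 0. Points are libraries, and bars give the mean and SD of 3. EpiLCs lead in Fgf4 and Etv5, 2D EpiSCs in both receptors and embryo-derived 3D EpiSCs in Fgf8.

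Among the feedback genes, Etv5 and Spry4 stood highest in EpiLCs. Etv5 was at 237, 233 and 222 TPM in EpiLCs, 108, 101 and 129 TPM in 2D EpiSCs, 132, 136 and 129 TPM in ESC-derived and 136, 123 and 124 TPM in embryo-derived 3D EpiSCs. All EpiLC libraries were above all others, which lay close together. Etv5 was lower in 2D EpiSCs than in EpiLCs by 1.04 on the log2 scale (SE 0.10, limma adjusted p = 5.43e-06), a difference of 0.98 where close replicates were averaged and 0.96 without 2D EpiSC replicate 2, both in the same direction and under the size set for a call. Spry4 was at 37.9, 27.9 and 33.2 TPM in EpiLCs, 17.4, 17.9 and 17.9 TPM in 2D EpiSCs, 15.9, 15.7 and 18.5 TPM in ESC-derived and 13.6, 11.3 and 11.7 TPM in embryo-derived 3D EpiSCs. Spry4 was lower than in EpiLCs by 1.36 in embryo-derived 3D EpiSCs (SE 0.12, limma adjusted p = 2.19e-06), and its differences of -0.85 in 2D (limma adjusted p = 8.97e-05) and -0.93 in ESC-derived 3D EpiSCs (limma adjusted p = 7.26e-05) were not called.

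Dusp6, Spry2 and Etv4 stood higher in the 3D cultures than in 2D EpiSCs. Dusp6 was at 131, 125 and 101 TPM in EpiLCs, 81.5, 76.6 and 83.9 TPM in 2D EpiSCs, 150, 152 and 225 TPM in ESC-derived and 180, 134 and 136 TPM in embryo-derived 3D EpiSCs. The 2D EpiSC libraries were below all others. The difference from 2D EpiSCs was 1.09 in ESC-derived 3D EpiSCs (SE 0.17, limma adjusted p = 0.000588), which was called, and 0.87 in embryo-derived 3D EpiSCs (SE 0.17, limma adjusted p = 0.0026), which was not. Without replicate 3 of the ESC-derived 3D EpiSCs the first became 0.90 and was no longer called. The test found no difference between the 2 kinds of 3D EpiSCs (0.22, limma adjusted p = 0.375).

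Spry2 was at 51.5, 35.0 and 48.5 TPM in EpiLCs, 48.9, 49.2 and 49.2 TPM in 2D EpiSCs, 80.5, 83.1 and 67.0 TPM in ESC-derived and 107, 75.7 and 78.5 TPM in embryo-derived 3D EpiSCs. Both 3D cultures lay above EpiLCs and 2D EpiSCs in every library, by 0.63 and 0.79 against 2D EpiSCs (limma adjusted p = 0.00928 and 0.00332) and by 0.77 and 0.94 against EpiLCs (limma adjusted p = 0.00252 and 0.000478), none of them called. Etv4 was at 77.7, 67.9 and 39.5 TPM in EpiLCs, 39.0, 38.3 and 42.9 TPM in 2D EpiSCs, 65.2, 60.5 and 72.0 TPM in ESC-derived and 66.3, 72.0 and 66.2 TPM in embryo-derived 3D EpiSCs. The 3D cultures lay above 2D EpiSCs in every library, by 0.70 and 0.75 (limma adjusted p = 0.0132 and 0.0122), also uncalled, while EpiLCs spanned the whole range through replicate 3.

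Between cultures, the 10 genes were called as follows. In 2D EpiSCs against EpiLCs, 3 were higher (Fgf8, Fgfr1 and Fgfr2) and 3 lower (Fgf4, Fgf15 and Etv5), where 15.2% of all genes were called higher and 5.14% lower. Against 2D EpiSCs, ESC-derived 3D EpiSCs had Dusp6 higher and Fgfr2 lower, beside 0.633% and 9.25% of all genes. Embryo-derived 3D EpiSCs had Fgf8 higher and Fgfr2 lower against 2D EpiSCs, beside 1.07% and 7.75%. Against EpiLCs, ESC-derived 3D EpiSCs had Fgf8 higher and Fgf4 and Fgfr2 lower (5.33% and 7.11% of all genes), and embryo-derived 3D EpiSCs had Fgf8 higher and Fgf4, Fgf15 and Spry4 lower (10.5% and 8.28%). These comparisons share control libraries and are not independent. The median over all genes was 0.18 in 2D EpiSCs against EpiLCs and -0.21 in ESC-derived 3D EpiSCs against 2D EpiSCs, and 0.02 and -0.06 after rescaling.

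The 2 kinds of 3D EpiSCs, grown in the same medium from different starting cells, differed in all 3 ligands. ESC-derived 3D EpiSCs had more Fgf4 (log2 difference 1.08, SE 0.13, limma adjusted p = 0.000192) and Fgf15 (1.10, SE 0.18, limma adjusted p = 0.00186) and less Fgf8 (-1.22, SE 0.28, limma adjusted p = 0.0118), in a comparison with 1.98% of all genes called in each direction. The libraries did not overlap for any of the 3. Fgf15 lost its call without embryo-derived replicate 1 (0.89), and Fgf8 lost it without ESC-derived replicate 3 (-0.86), where close replicates were averaged (-1.47) and where only these 2 groups were fitted (-1.22). The receptors and feedback genes stayed under the thresholds, Spry4 coming nearest at 0.43 (limma adjusted p = 0.0288). Primitive streak and mesoderm markers summed to 75.9 to 92 TPM in ESC-derived and 170 to 277 TPM in embryo-derived 3D EpiSCs, with 4 of 6 tested called lower in the ESC-derived cultures, and their part in the Fgf8 difference was not tested. The share of calls that were lower went from 50.1% to 37.0% after rescaling in this comparison. Origin and the particular cell line differ together between these cultures and cannot be told apart.

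The makeup of the ligand and receptor pools puts the members beside their relatives. Of the summed TPM of 18 secreted FGF ligands, Fgf4 made up 46.9% ± 2.9 (SD, n = 3) at E3.5 and 62.2% ± 1.84 at E4.5, with Fgf10, a ligand of Fgfr2, at 38.5% ± 1.27 at E3.5. At E5.5 and E6.5, Fgf8 led with 39.1% ± 1.26 and 49.1% ± 5.41, followed by Fgf5, a marker of the post-implantation epiblast, with 36.5% ± 1.69 and 33.3% ± 5.89. At E7.5 Fgf15 led with 32.7% ± 1.93, beside Fgf8 with 25.5% ± 3.47 and Fgf3 with 16% ± 1.53. The pool as a whole summed to 78.8 ± 1.69 TPM at E3.5, 79.4 ± 4.81 at E4.5, 277 ± 10.1 at E5.5, 295 ± 37.1 at E6.5 and 92.2 ± 6.4 at E7.5.

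In culture Fgf5 held the largest share of ligand transcripts, with 41.4% ± 0.655 in EpiLCs, 77.2% ± 1.54 in 2D EpiSCs, 58.8% ± 2.31 in ESC-derived and 60.4% ± 3.43 in embryo-derived 3D EpiSCs. Fgf4 made up 28.7% ± 2.46 in EpiLCs and 1.47% ± 0.225 in 2D EpiSCs. Fgf8 made up 4.88% ± 0.974 in EpiLCs, 11.9% ± 1.12 in 2D EpiSCs, 20.8% ± 5.08 in ESC-derived and 32.5% ± 4.7 in embryo-derived 3D EpiSCs. The 3 member ligands together thus never held the larger part of the pool in 2D or 3D EpiSCs.

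Of the summed TPM of Fgfr1 to Fgfr4, Fgfr2 made up 67.7% ± 0.778 at E3.5 and 61.6% ± 3.25 at E4.5, and Fgfr1 took over with 77.2% ± 2.59 at E5.5, 73.9% ± 3.08 at E6.5 and 64.2% ± 0.792 at E7.5. The pool summed to 321 ± 5.97 TPM at E3.5, 153 ± 7.61 at E4.5, 67.4 ± 2.55 at E5.5, 64.8 ± 4.31 at E6.5 and 308 ± 3.47 at E7.5, so that the switch to Fgfr1 at E5.5 came with a smaller pool and an Fgfr1 level that the test did not separate from E4.5. In culture Fgfr1 made up 82.2% ± 6.48 in EpiLCs, 78.6% ± 2.11 in 2D EpiSCs, 92.8% ± 2.27 in ESC-derived and 92.6% ± 0.739 in embryo-derived 3D EpiSCs.

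**Figure D4:**
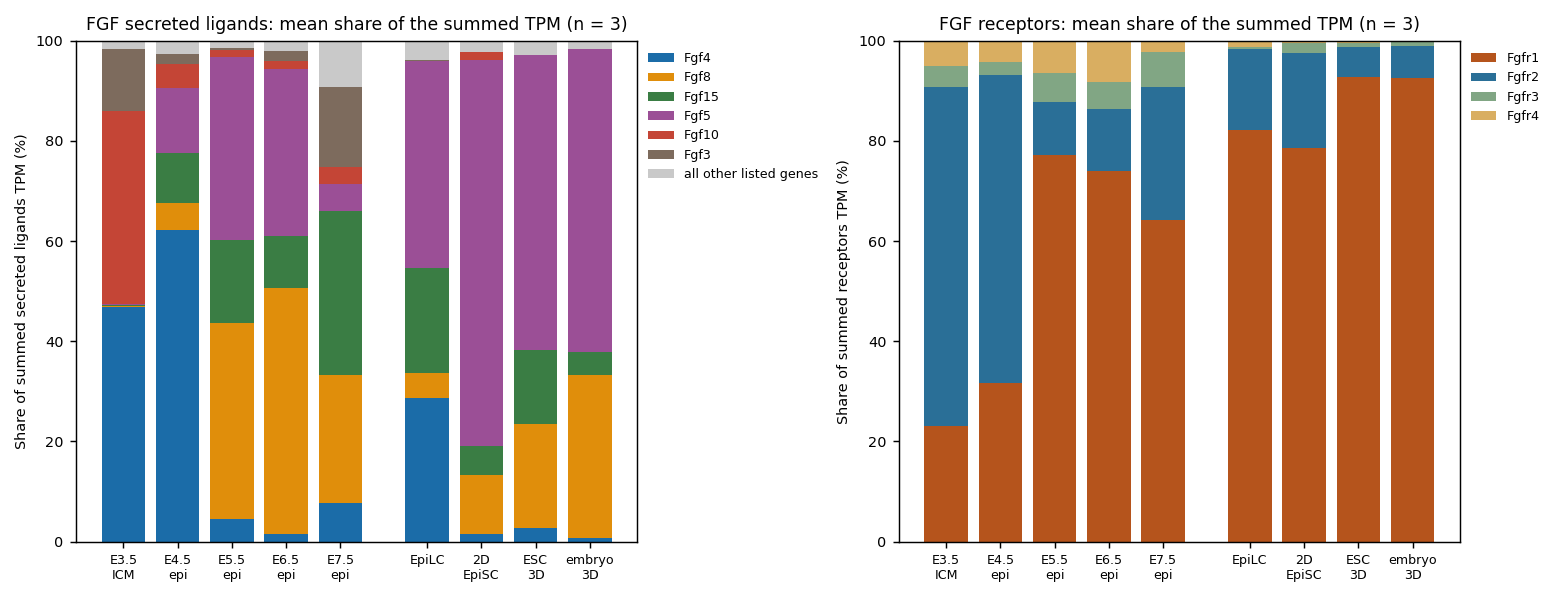
Mean share (n = 3, in percent) of each gene in the summed TPM of 18 secreted FGF ligands (left) and of 4 FGF receptors (right), by group. Embryo and culture libraries were made with different kits. Fgf4 and Fgfr2 dominate at E3.5 and E4.5, Fgf8, Fgf5 and Fgfr1 at E5.5 and E6.5, and Fgf5 and Fgfr1 in EpiSCs.

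Of 15 other secreted ligands, 4 passed the filter in each family. In the embryo Fgf5 rose at E4.5 (3.38) and E5.5 (3.18) and fell by 4.04 at E7.5 on the log2 scale (limma adjusted p = 1.34e-10, 1.37e-10 and 3.72e-11). Fgf10 and Fgf3 fell at E4.5, by 2.71 and 2.09 (limma adjusted p = 4.74e-09 and 8.13e-07), and Fgf3 rose again at E6.5 (1.80) and E7.5 (1.22). Fgf17 rose at E5.5 (1.29), from 0.628 to 2.77 TPM. In culture Fgf10 was higher in 2D EpiSCs than in EpiLCs (3.16) and lower in both 3D EpiSCs than in 2D EpiSCs (-2.89 and -2.46), at 8.29 ± 1.25 TPM in 2D EpiSCs (SD, n = 3), the group in which its receptor gene Fgfr2 was also highest.

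Of 5 other receptors and co-receptors, 4 were tested in the embryo and 2 in culture. Fgfr3, Fgfr4 and the co-receptor Klb were lower at E4.5 (-1.68 for Fgfr3 and -1.22 for Fgfr4), the decoy receptor Fgfrl1 rose at E5.5 (1.30) and E7.5 (1.22), and Fgfr3 rose at E7.5 (2.32), the step of the Fgfr1 and Fgfr2 rises. In culture Fgfr3 was higher in 2D EpiSCs than in EpiLCs (1.73) and lower in ESC-derived (-1.37) and embryo-derived 3D EpiSCs (-1.16) than in 2D EpiSCs, at 3.04 ± 0.64 TPM in 2D EpiSCs. The orders of Fgfr3 and Fgfr2 in culture were thus alike in having 2D EpiSCs on top.

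Of 20 genes that pass the signal from receptor to ERK, 3 were higher and 1 lower at E4.5, 2 higher and 2 lower at E5.5 and 1 higher at E7.5. Over all genes, the shares called higher and lower were 5.88% and 11.9% at E4.5, 14.9% and 9.47% at E5.5 and 10.6% and 1.94% at E7.5, so that the E5.5 counts lay near or under the shares of all genes. The kinase Rps6ka2 rose at E4.5 (1.78) and E5.5 (2.00), Mapk3, which encodes ERK1, rose at E5.5 (1.20) from 30.9 to 71.7 TPM, and the docking protein gene Gab1 fell by 1.41 at E5.5. In culture Gab1 was at 166 ± 5.4 TPM in EpiLCs and 21.2 ± 0.837 in 2D EpiSCs, and lower than in EpiLCs in 2D EpiSCs (-2.91, limma adjusted p = 2.89e-10), ESC-derived (-3.68) and embryo-derived 3D EpiSCs (-3.79), the 3 comparisons in which Fgf4 also was lower.

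Of 9 other feedback and ETS genes, all tested, 2 rose at E4.5, Dusp7 (1.81) and Dusp5 (1.13), in the step in which Dusp6 rose. At E5.5 Spred3 (1.85) and Il17rd (1.51) rose and Dusp5 fell by 1.07, as Dusp6 did. At E7.5 Spred1 rose (1.24), and Etv1, the third Pea3-type gene, fell by 1.14 as Etv5 did. The shares of all genes called higher and lower were 5.88% and 11.9% at E4.5, 14.9% and 9.47% at E5.5 and 10.6% and 1.94% at E7.5, and with counts of 1 or 2 of 9 nothing is read as particular to this list. In culture embryo-derived 3D EpiSCs had more Il17rd (1.46) and Spred2 (1.22) and less Dusp4 (-1.53) than EpiLCs. Dusp4 was also lower than in EpiLCs in ESC-derived 3D EpiSCs (-1.03, limma adjusted p = 0.00243). ESC-derived 3D EpiSCs had less Spred2 than embryo-derived ones (-1.32, limma adjusted p = 1.65e-05), with 41.2 ± 4.94 TPM against 104 ± 8.92 TPM (SD, n = 3).

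The list of genes raised by ERK, here called early ERK response genes, included Fos. Its difference at E5.5 was the largest of the pathway genes between successive stages. Fos, which encodes a subunit of AP-1, stood at 390, 389 and 419 TPM at E4.5, against 5.14 to 6.63 TPM at E3.5 and 2.78 to 4.14 TPM at E5.5. At E4.5, 6 of 9 rose and 1 fell, with Fos by 5.89, Egr1 by 4.33 and Fosl1 by 4.25 on the log2 scale, and at E5.5, 5 fell and 1 rose, with Fos by -6.50. Of all genes, 5.88% were called higher and 11.9% lower at E4.5, and 14.9% and 9.47% at E5.5. The median of the list was 1.55 at E4.5, beside -0.10 over all genes. E4.5 cells were those picked by hand after immunosurgery, and markers of other cell types also changed at both steps. Trophectoderm and extraembryonic ectoderm markers summed to 2869 to 3070 TPM at E4.5 and 343 to 377 TPM at E5.5. Handling, stage and the mix of cell types therefore cannot be told apart for these genes. The same holds for the Dusp6 peak and for the other changes of the 10 genes at E4.5.

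At E6.5, 3 of 9 rose (Fos, Fosl1 and Junb) and 0 fell, where 0.715% of all genes were called higher and 0.48% lower. At E7.5 Fos, Fosl1, Egr1 and Junb fell and Phlda1 rose, with Fos at 0.695 to 0.819 TPM, in a step where 10.6% of all genes were called higher and 1.94% lower. In culture Fos was at 0.84 to 7.18 TPM in EpiLCs, 37.4 to 64.9 TPM in 2D EpiSCs, 267 to 319 TPM in ESC-derived and 199 to 453 TPM in embryo-derived 3D EpiSCs, and 3D EpiSCs exceeded 2D EpiSCs by 2.42 and 2.31 (limma adjusted p = 0.00228 and 0.00353). Against EpiLCs, 5 of 9 genes of the list were called higher in 2D EpiSCs, 4 in ESC-derived and 4 in embryo-derived 3D EpiSCs. In each of these 0 were lower. Shares of all genes called higher there were 15.2%, 5.33% and 10.5%, and lower 5.14%, 7.11% and 8.28%. Against 2D EpiSCs the list did not move one way. ESC-derived 3D EpiSCs had 2 of 9 called higher (Fos and Egr1) and 2 lower, and the embryo-derived cultures had 1 higher (Fos) and 2 lower. The lower ones in both were Phlda1 (-2.24 and -2.71) and Ier3 (-1.51 and -2.55). Of all genes, 0.633% were called higher and 9.25% lower in the ESC-derived cultures, and 1.07% and 7.75% in the embryo-derived ones. Dusp6 had the same order of 2D EpiSCs below 3D EpiSCs, while EpiLCs, the lowest group in Fos, held more Dusp6 than 2D EpiSCs in every library and the most Etv5. The 3D EpiSCs differed from 2D EpiSCs in growth in Matrigel and in medium, with XAV939 and Noggin added. According to the study's methods, the base medium also differed and Activin-A was higher. Embryo-derived 3D EpiSCs differed from 2D EpiSCs, which came from ESCs, in origin and cell line as well. How cells were freed before bulk RNA isolation is not stated in the study's methods. Culture in 3D, medium and handling therefore cannot be told apart for any gene in these comparisons, nor can origin in that of the embryo-derived cultures. Among embryo-derived 3D EpiSCs, replicate 1 had the highest Fos (453 TPM), Egr1 (195 TPM), Dusp6 (180 TPM) and Spry2 (107 TPM). Dusp6 and Spry2 parted in ESC-derived 3D EpiSCs, where replicate 3 had the highest Dusp6 (225 TPM) and the lowest Spry2 (67.0 TPM).

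**Figure D5:**
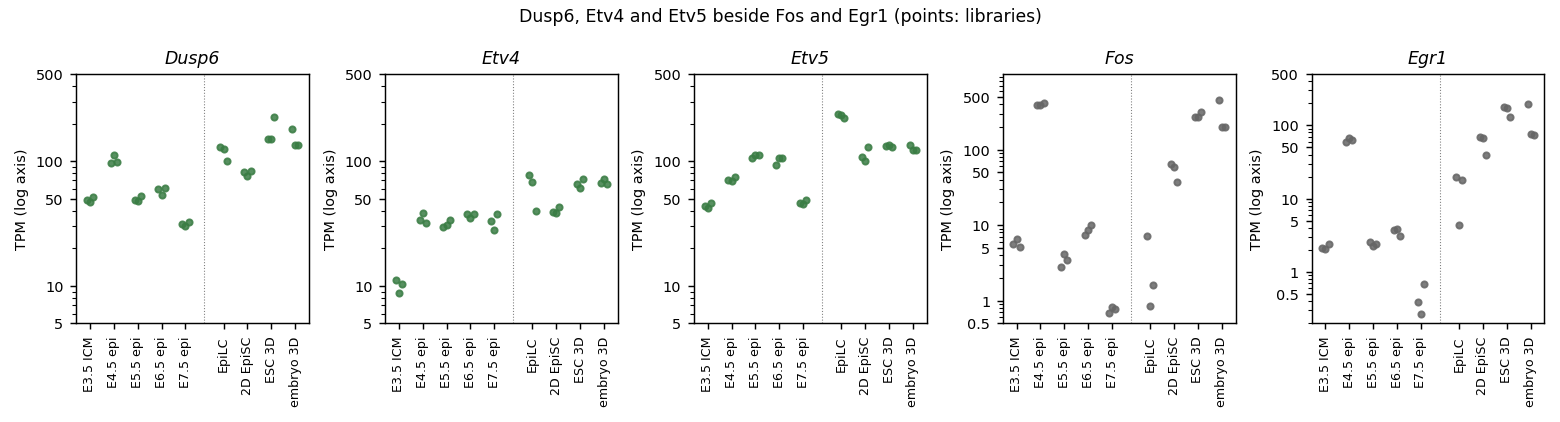
Level of Dusp6, Etv4 and Etv5 beside Fos and Egr1 in all 27 libraries, in TPM on logarithmic axes, with embryo groups left and culture groups right of the dotted line. Points are libraries. Dusp6, Fos and Egr1 peak at E4.5 in the embryo, where Etv5 does not.

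Across the 15 embryo libraries, which share 5 stages and are not independent points, the profiles of the members were compared by Pearson's r of log2(TPM + 1), given as a description. Fgf8 and Fgf15 ran together (r = 0.92), Fgf8 ran against Fgfr2 (r = -0.94) and Fgf4 (r = -0.82), and Etv5 ran against Fgfr2 (r = -0.91). Over the 12 culture libraries the ligands were paired differently, with Fgf4 and Fgf15 together (r = 0.80), Fgf8 against both (r = -0.93 and -0.73), Spry4 with Fgf4 (r = 0.95) and Dusp6 against Fgfr2 (r = -0.95). Fgf8 and Fgf15 thus had coefficients of opposite sign in embryo and culture, 0.92 and -0.73.

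The tested genes whose embryo profiles were most like each member were found in the same way (n = 15 libraries). For Fgf4 they were Tle4 (r = 0.976), Gsta4 and Dok2 (both 0.974), for Fgf8 Grb7 (0.984), Unc5b (0.983) and Zic2 (0.982), and for Fgf15 the Wnt receptor gene Fzd7 (0.995), Cacng7 and Arl4c (both 0.993). Fgfr1 was most like the homeobox genes Hoxb4 (0.993), Hoxb6 (0.991) and Pknox2 (0.986), and Fgfr2 like Zmiz1 (0.993), the desmosome gene Dsp (0.992) and H2afy (0.987). Spry2 was most like Msc (0.983) and the laminin genes Lamc1 (0.958) and Lama1 (0.946), and Spry4 like Dact2 (0.921), Pmaip1 (0.900) and Isyna1 (0.888), the lowest coefficients of the 10. Dusp6 was most like the early response genes Egr1 (0.959) and Fos (0.954) and like Anxa4 (0.957). Etv4 was most like Obsl1 and Cmtm8 (both 0.984) and Card10 (0.975), and Etv5 like Nefl (0.958), Slc27a2 (0.957) and Socs2 (0.953), a feedback gene of cytokine receptors.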

How the data were processed

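Bulk RNA of 27 libraries was used, of 35 samples in the series. The single-cell and bisulfite samples were not analysed here. The authors trimmed reads with cutadapt (version 2.4 in the submitters' processing notes), aligned them to mm10 with STAR and deposited TPM from StringTie on the GENCODE VM19 annotation. TPM sums to the same total in every library, so depth is unknown and no counting interval can be given. Embryo libraries were made from total RNA depleted of ribosomal cDNA, and culture libraries by poly-A capture. The 10 genes were matched by symbol. Genes tested were autosomal and protein-coding with TPM above 2 in at least 3 libraries. log2(TPM + 1) was fitted with limma 3.58.1 (R 4.3.3; lmFit, eBayes without trend), in 1 fit for all 5 embryo groups and 1 for all 4 cultures, where the study had used a count test, which needs counts. Adjustment was by Benjamini-Hochberg over all genes of a comparison. The scripts were tested on simulated data. Tests are two-sided, and p-values measure the spread between these libraries, which may be technical. The members, gene lists and comparisons were chosen with earlier results of these data known. Named genes were the members, from each pathway list and comparison at most 3 called genes of largest change, 3 genes most like each member, and the highest or defining genes of the marker lists. Ctbp2, Cdx2, Elf5 and single values of other listed genes were named after their values were seen. Alternatives were a pseudocount of 0.1, no filter, median-of-ratios rescaling, the compared groups alone, a replicate block, averaged close replicates and leaving out each library. Promoter windows are from RefSeq on GRCm38.p6. Values of a further gene of the pathway lists are not reported here.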

Additional observations from a re-analysis of the deposited data

Results flagged for a closer look

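The 2 kinds of 3D EpiSCs, grown in 1 medium from ESCs or from embryos, differed in the 3 ligand genes by a direct limma test, which singled these results out. Fgf8 was lower in the ESC-derived cultures (log2 difference -1.22, limma adjusted p = 0.0118, lower in 3 of 3 libraries), Fgf15 was higher (1.10, limma adjusted p = 0.00186, higher in 3 of 3) and Fgf4 was higher (1.08, limma adjusted p = 0.000192, higher in 3 of 3). Without replicate 3 of the ESC-derived cultures, which stood apart from its fellows over all genes, the Fgf8 difference was -0.86 and no longer called, and without replicate 1 of the embryo-derived cultures that of Fgf15 was 0.89 and no longer called. Dixon's test was not applied, since groups held 3 libraries.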

How the results depend on the processing

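The 100 differences of the 10 genes kept their direction and their side of the thresholds with no filter, with a pseudocount of 0.1 and with a replicate block. Replicate numbers are shared between groups only as numbers: the mean correlation of same-numbered libraries' deviations was -0.0166 in the embryo and -0.0299 in culture. Fitting only the compared groups ended 2 calls, averaging close replicates ended 2 and made 1 of 60, and leaving out a library ended 9 and made 7 of 600. Median-of-ratios rescaling ended 1 call, made 3 and turned 5 small uncalled differences: Fgfr1 at E5.5 (-0.01), Spry2 at E6.5 (0.01), Spry2 in 2D EpiSCs against EpiLCs (-0.03), Spry4 in ESC-derived 3D against 2D EpiSCs (0.08) and Etv4 between the 3D EpiSCs (0.07). Without single libraries, 5 uncalled differences crossed 0: Fgf15 at E7.5 ranged from -0.19 to 0.10, Spry2 in 2D EpiSCs against EpiLCs from -0.02 to 0.25, Etv4 against EpiLCs from -0.14 to 0.34 in ESC-derived and from -0.09 to 0.39 in embryo-derived 3D EpiSCs, and Etv4 between the 3D EpiSCs from -0.12 to 0.01. The number of genes called in ESC-derived 3D against 2D EpiSCs was 2, and 1 to 3 without single libraries (1 without ESC-derived replicate 3, 3 without 2D EpiSC replicate 3). The cause of these shifts was not tested. TPM keeps no depth, so the precision of low values such as Fgf8 and Fgf15 at E3.5 is unknown.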
